A study of Mus musculus with 6 samples.

Results

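The Nkx genes encode homeodomain transcription factors, and 9 of them are described here: Nkx1-2, Nkx2-1, Nkx2-2, Nkx2-3, Nkx2-5, Nkx2-9, Nkx3-2, Nkx6-1 and Nkx6-2. They were taken by gene symbol from the 24453 rows of the count files. RNA of sorted back skin cells from newborn mice (postnatal day 0) was sequenced in bulk as 3 libraries with the label control and 3 with the label Ring1a/b 2KO. The genotype given for the second group is Ring1a-/- Ring1b-/-, the loss of both RING1 proteins, which are the ubiquitin ligases of Polycomb repressive complex 1. The genotype of the first is given as control, with no further allele. The sample labels name hair follicle cells, while the attached protocol sorts on an interfollicular gate (EpCAM+, Sca1+ and high in α6-integrin). The labels do not give the cells in which the genes were deleted, the strain, or whether each library came from its own animal, so p-values measure the spread between these libraries, which may be technical.

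NKX proteins bind DNA through a homeodomain, and several of them recruit Groucho corepressors. In the ventral neural tube, hedgehog signal switches on Nkx2 and Nkx6 genes, and in the endoderm, heart and axial skeleton other members mark early organ progenitors. Many genes of this kind are classical targets of Polycomb complexes, which keep developmental regulators silent outside their own tissue.

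Libraries held 24.8 to 30.8 M counts, and 1 count corresponded to between 0.0323 and 0.0392 CPM (counts per M of library total, scaled by TMM). Of the targeted genes, Ring1 was at 19.5, 22.4 and 3.37 CPM in control replicates 1 to 3 and at 1.84, 7.34 and 14.1 CPM in 2KO replicates 1 to 3. Rnf2, which encodes RING1B, was at 67.7, 79.5 and 47.1 CPM in the control libraries and at 75.3, 66.4 and 89.2 CPM in the 2KO libraries. The groups overlapped for both genes (edgeR adjusted p = 0.537 and 0.615), and Ring1 went against the labels in control replicate 3 and in 2KO replicate 3, which was above it. Counts over whole genes do not check a deletion of a part, so the groups are named by their labels throughout. Epcam and Itga6 were high in all 6 libraries (165 to 358 and 683 to 1090 CPM), and Ly6a, which encodes Sca1, was low in all 6 (1.92 to 7.28 CPM).

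The 9 genes together went from a trace to a low but clear level. Their counts summed to 19, 17 and 6 in the control libraries (0.674, 0.549 and 0.196 CPM) and to 339, 464 and 406 in the 2KO libraries (13.3, 15.5 and 15.9 CPM). Every control sum lay below every 2KO sum. For 6 genes, Nkx2-1, Nkx2-2, Nkx2-3, Nkx2-5, Nkx2-9 and Nkx6-1, every 2KO library lay above every control library, an arrangement found for 12.6% of the 19904 rows with any count. Nkx6-2, Nkx1-2 and Nkx3-2 did not show it. In no Nkx gene did every 2KO library lie below every control library (10.8% of rows).

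**Figure D1:**
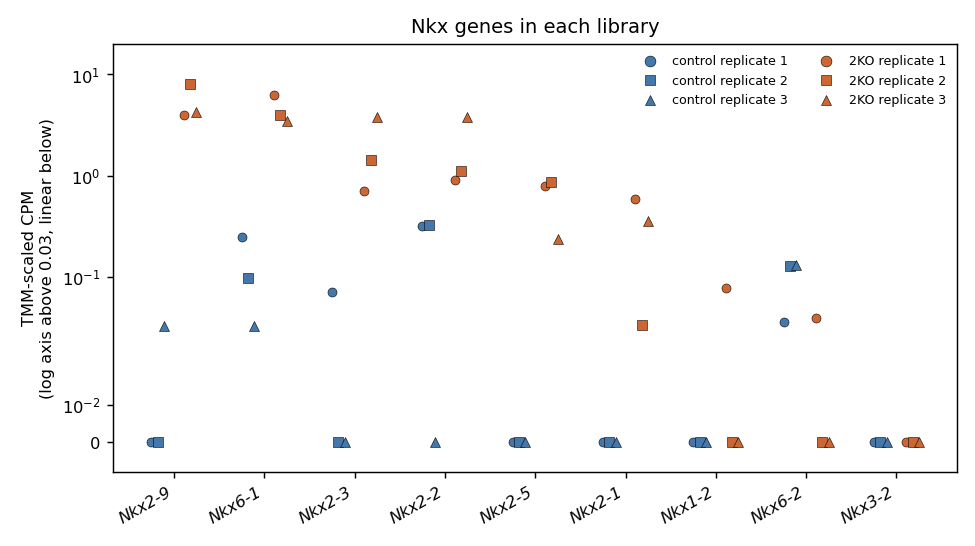
TMM-scaled CPM of the 9 Nkx genes in each library, on an axis that is logarithmic above 0.03 and linear below; each symbol is 1 library, blue for control and orange for 2KO. For the 6 genes on the left the orange symbols lie above all blue ones, Nkx2-9 reaching 3.96 to 8.08 CPM, while Nkx3-2 is at 0 in all 6 libraries.

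Only 4 of the 9 had enough counts to enter the test across all genes: Nkx2-2, Nkx2-3, Nkx2-9 and Nkx6-1. The 5 others did not pass the low-count filter. Genes that are nearly silent in the control libraries enter that test only through a high level in the 2KO libraries, so the number of risen genes among the 4 is a description. Of the 4, 3 rose and 1 did not pass the threshold of an adjusted p under 0.05. Over all 14972 tested genes, 9.02% passed, 6.61% higher and 2.42% lower. Of the 6194 rows with 0 counts in all 3 control libraries, 129 (2.08%) had counts in all 3 2KO libraries. The Nkx genes with 0 counts in all control libraries were Nkx1-2, Nkx2-1, Nkx2-5 and Nkx3-2, and 2 of these, Nkx2-1 and Nkx2-5, are among the 129.

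Nkx2-9 and Nkx2-1 lie 74.5 kb apart on chromosome 12, and both belong to the NK2 class. Nkx2-9 (ENSMUSG00000058669.7, GRCm38 chromosome 12, 56611389 to 56613284, minus strand) is expressed in the ventral neural tube, and Nkx2-1 (ENSMUSG00000001496.15, 56531958 to 56536908, minus strand) is the regulator of thyroid, lung and ventral forebrain. Sequence just upstream of their starts is shown with that of 2 further members, Nkx2-3, which rose, and Nkx6-2, which stayed at a trace, so that the density of CpG dinucleotides, a feature common at Polycomb target promoters, can be compared. Each line gives the 160 bases before the RefSeq start (GRCm38.p6), 5′ to 3′ on the gene's strand, with every CG in capitals.
Nkx2-9 (chr12:56613285-56613444, minus strand): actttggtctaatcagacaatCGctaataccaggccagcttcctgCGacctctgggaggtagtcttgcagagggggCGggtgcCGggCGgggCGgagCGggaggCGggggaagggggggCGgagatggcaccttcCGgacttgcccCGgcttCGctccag
Nkx2-1 (chr12:56536909-56537068, minus strand): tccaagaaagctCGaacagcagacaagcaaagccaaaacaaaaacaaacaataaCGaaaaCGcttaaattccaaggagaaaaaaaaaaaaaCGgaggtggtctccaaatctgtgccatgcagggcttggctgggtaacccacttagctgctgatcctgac
Nkx2-3 (chr19:43612165-43612324, plus strand): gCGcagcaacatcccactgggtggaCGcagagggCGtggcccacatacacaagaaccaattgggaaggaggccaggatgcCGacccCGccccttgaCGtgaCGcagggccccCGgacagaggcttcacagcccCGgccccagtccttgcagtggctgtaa
Nkx6-2 (chr7:139582798-139582957, minus strand): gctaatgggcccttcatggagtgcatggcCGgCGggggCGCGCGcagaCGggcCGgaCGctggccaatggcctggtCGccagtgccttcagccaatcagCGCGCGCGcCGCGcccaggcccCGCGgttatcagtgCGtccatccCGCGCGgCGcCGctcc

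The sequence of Nkx6-2 holds 23 CG, that of Nkx2-9 12, that of Nkx2-3 9 and that of Nkx2-1 4. All 9 genes matched a RefSeq promoter window of 300 bases (250 before and 50 after the start). These windows held between 9 and 40 CG, with a median of 17, where the median over 32851 windows of all genes was 7 and the upper quartile 20. Nkx6-1 had the most (40, more than 96.1% of windows) and Nkx2-5 the fewest (9, more than 54.2%). The other windows held 32 CG (Nkx6-2), 25 (Nkx3-2), 21 (Nkx1-2), 17 (Nkx2-2), 15 (Nkx2-9 and Nkx2-3 each) and 12 (Nkx2-1). The part of CG density in the Nkx values was not tested. The NK2 core motif TNAAGTG, searched on both strands, occurred in the windows of 2 of the 9 (Nkx1-2 and Nkx2-2) and in 11.5% of all windows. No upstream sequence is shown for Nkx6-1, Nkx2-2, Nkx2-5 and Nkx3-2, since GENCODE places exon sequence in the stretch before their RefSeq starts. Their windows, which give the highest, the median and the lowest CG count, hold that exon sequence too. The CG counts of these windows are thus not of upstream sequence alone.

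Nkx2-9 had 0, 0 and 1 counts in the control libraries and 101, 242 and 109 in the 2KO libraries (3.96, 8.08 and 4.28 CPM). Control was thus at or within 1 count of 0, and the groups did not overlap. Nkx2-9 rose by a pooled ratio of 501 (95% counting interval 89.5 to 19800, edgeR quasi-likelihood log2 fold change 8.46, SE 0.96, adjusted p = 0.00113). The single control count sets the size of this value: without control replicate 3 the log2 fold change was 10.25 (edgeR adjusted p = 0.0047). The call held in all 16 alternative fits, with adjusted p-values between 1.65e-09 and 0.0283.

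Nkx2-1 had 0 counts in every control library and 15, 1 and 9 counts in the 2KO libraries (0.588, 0.0334 and 0.353 CPM). It was low throughout, and 2KO replicate 2 lay at the level of a single count. Against a floor of 3 counts over the control group (0.0334 CPM) it was at least 9.24-fold higher over the 2KO group. It did not pass the filter, and without a filter it missed the threshold (edgeR adjusted p = 0.158).

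Nkx6-1 and Nkx6-2 belong to the NK6 class. Nkx6-1 (ENSMUSG00000035187.10, chromosome 5, 101658139 to 101664996, minus strand) acts in motor neuron progenitors and insulin-producing β cells. It was at 0.248, 0.0969 and 0.0327 CPM in the control libraries (7, 3 and 1 counts) and at 6.24, 3.97 and 3.49 CPM in the 2KO libraries (159, 119 and 89 counts). Every 2KO library was above every control library, and 2KO replicate 1 was the highest. Nkx6-1 rose by a pooled ratio of 37.0 (95% counting interval 20.4 to 74.8, edgeR log2 fold change 5.15, SE 0.80, adjusted p = 0.00444). The log2 fold change was 6.06 without control replicate 1, and the call held in all 16 alternative fits (adjusted p between 1.21e-09 and 0.0445).

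Nkx6-2 (ENSMUSG00000041309.17, chromosome 7, 139579376 to 139582797, minus strand), known from neural progenitors and oligodendrocytes, had 1, 4 and 4 counts in the control libraries and 1, 0 and 0 in the 2KO libraries. The groups overlapped at 1 count. Its pooled level was 8.12-fold lower in 2KO (95% counting interval 1.12 to 356), and without a filter it did not pass (edgeR log2 fold change -2.60, adjusted p = 0.563), in a fit where 2.38% of genes fell. Inpp5a, which overlaps 12.9% of the exon bases of Nkx6-2 on the other strand, was at 17.0 ± 5.63 CPM in control and 24.4 ± 0.706 CPM in 2KO (SD, n = 3, edgeR adjusted p = 0.324). The strand setting of the counting is not given, so reads of the shared bases cannot be assigned.

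Nkx2-2 (ENSMUSG00000027434.11, chromosome 2, 147177546 to 147194243, minus strand) specifies ventral neural progenitors and islet cells. It was the most abundant Nkx gene in control replicates 1 and 2, with 9 and 10 counts (0.319 and 0.323 CPM), and had 0 in control replicate 3. The 2KO libraries held 23, 33 and 96 counts (0.902, 1.10 and 3.77 CPM). All 2KO libraries were above all control libraries, but 2KO replicate 3 stood 4.18 times above 2KO replicate 1. Nkx2-2 did not pass the threshold (edgeR log2 fold change 3.14, SE 1.17, adjusted p = 0.146), and with DESeq2 it did (log2 fold change 3.17, adjusted p = 0.0391). By DESeq2 9.46% of genes rose and 4.9% fell. Over its 15 alternative fits the log2 fold change lay between 1.63, with the replicate-3 libraries of both groups left out, and 4.65, with Xist as a covariate, and the adjusted p between 0.0391 and 0.478.

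A pair of noncoding genes overlap Nkx2-2 on the other strand. Nkx2-2os, which shares 278 exon bases (9.67%) with it, had 0 counts in all libraries but 2KO replicate 3 (3 counts). The noncoding gene 6430503K07Rik, which shares no exon base with Nkx2-2, had 0 counts in all control libraries and 20, 22 and 7 in the 2KO libraries, at least 18.1-fold higher. It was not tested with the filter and passed without one (edgeR adjusted p = 0.0487). In 6430503K07Rik, 2KO replicate 3 was the lowest 2KO library, whereas in Nkx2-2 it was the highest.

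Nkx2-3 and Nkx2-5 are NK2 genes of the mesoderm. Nkx2-3 (ENSMUSG00000044220.13, chromosome 19, 43612325 to 43615892, plus strand) is needed for the spleen and for the vessels of the gut wall. It had 2, 0 and 0 counts in the control libraries and 18, 43 and 97 counts in the 2KO libraries (0.706, 1.44 and 3.81 CPM). The groups did not overlap, and the 95% counting interval of 2KO replicate 3 (3.09 to 4.64 CPM) lay apart from that of 2KO replicate 1 (0.418 to 1.12 CPM). Nkx2-3 rose by a pooled ratio of 87.6 (95% counting interval 23.8 to 730, edgeR log2 fold change 6.20, SE 1.33, adjusted p = 0.0192). The call was lost without control replicate 2 (adjusted p = 0.0616), control replicate 3 (0.0726) or 2KO replicate 3 (0.078), and with replicate 3 of both groups left out (0.182). The edgeR log2 fold change was 8.83 without control replicate 1, the only control library with counts (adjusted p = 0.0311), and 5.34 without 2KO replicate 3. That library, the highest for both Nkx2-3 and Nkx2-2, also had the highest sum of 8 melanocyte markers, at 84.9 CPM against 23.3 to 39.6 in the other 5 libraries. The part of melanocytes in the Nkx2-3 and Nkx2-2 values was not tested.

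Nkx2-5 (ENSMUSG00000015579.5, chromosome 17, 26838664 to 26845009, minus strand), the cardiac progenitor factor, had 0 counts in all control libraries and 20, 26 and 6 counts in the 2KO libraries (0.784, 0.868 and 0.235 CPM). It was at least 19.2-fold higher over the 2KO group. It was too low for the filter, and with no filter it passed (edgeR adjusted p = 0.0456), a fit in which 5.8% of 19904 genes rose. In the 5 fits with libraries left out in which it could be tested, it missed the threshold (adjusted p between 0.0608 and 0.12).

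Nkx1-2 (ENSMUSG00000048528.7, chromosome 7, 132594878 to 132599637, minus strand), a gene of early posterior progenitors, had 2 counts in 2KO replicate 1 and 0 in the other 5 libraries. Nkx3-2 (ENSMUSG00000049691.8, chromosome 5, 41761483 to 41764501, minus strand), a factor of the axial skeleton and of cartilage, had 0 counts in all 6. A count of 0 allows a level of up to 0.0334 CPM over the control libraries and 0.0371 CPM over the 2KO ones (3 counts over the group, counting error only). Whether either gene differs was not detectable at this depth.

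**Figure D2:**
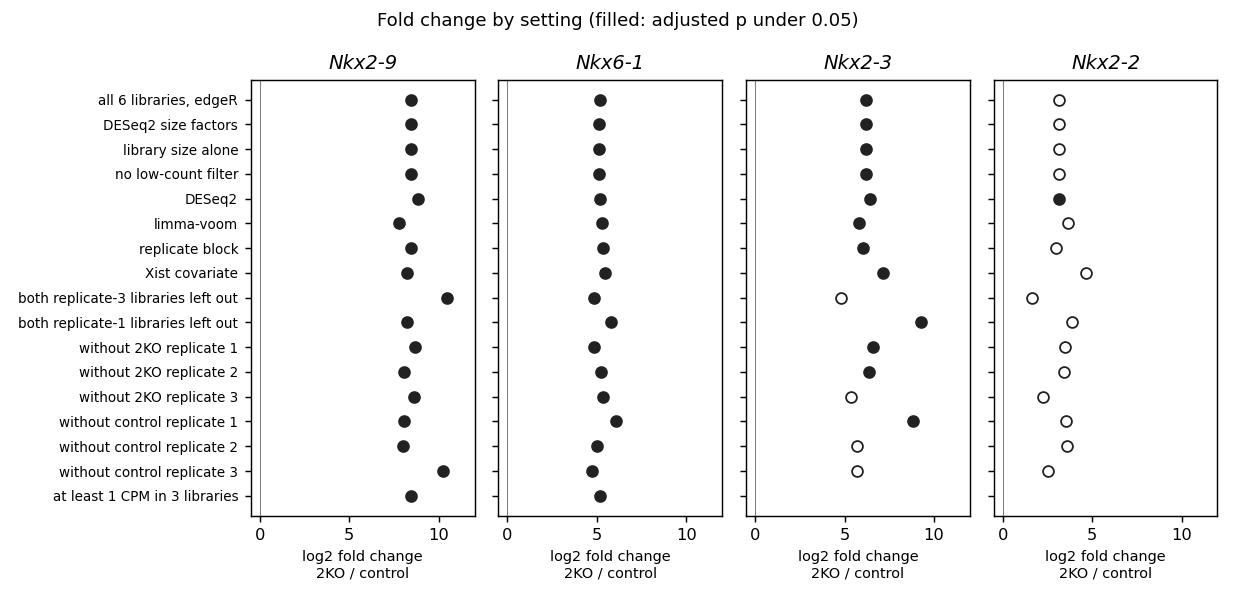
Log2 fold change of the 4 tested Nkx genes (2KO over control) under edgeR with all 6 libraries (top line) and under each alternative; filled circles mark an adjusted p under 0.05. All values are above 0. Nkx2-9 and Nkx6-1 are filled in every line, Nkx2-3 is open in 4, Nkx2-2 is filled only with DESeq2, and both were too low for the test at 1 CPM in 3 libraries.

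Per length of exon, which allows levels to be set side by side between genes, Nkx2-9 was the highest in the 2KO libraries, at a mean of 4.30 RPKM (counts per kb of exon and per M of library total, 3.13 to 6.39). Nkx6-1 followed at 1.46 RPKM (1.11 to 1.99), and no 2KO library of it reached the lowest of Nkx2-9. Nkx2-3 came next at 0.939 RPKM (0.334 to 1.80) and Nkx2-2 at 0.669 (0.314 to 1.31). The 2KO libraries of Nkx2-3 and Nkx2-2 overlapped each other and those of Nkx6-1. Nkx2-5 was at 0.366 RPKM (0.137 to 0.505) and Nkx2-1 at 0.114 (0.0117 to 0.207), and each overlapped its upper neighbour in this order. In the control libraries no mean was above the 0.0745 RPKM of Nkx2-2. These are ranges of levels over 3 libraries, with no test between genes.

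**Figure D3:**
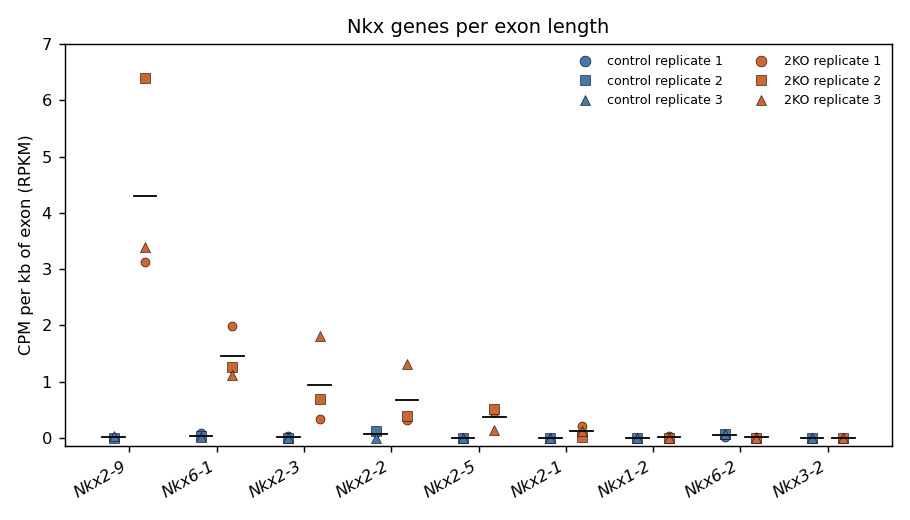
Level of the 9 Nkx genes per kb of exon (RPKM) in each library, with a line at the mean of each group of 3. Nkx2-9 in 2KO lies between 3.13 and 6.39, above all 2KO libraries of Nkx6-1 (1.11 to 1.99).

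The 2KO libraries did not share an order among the Nkx genes. The most abundant was Nkx6-1 in 2KO replicate 1 (46.9% of the summed counts) and Nkx2-9 in 2KO replicates 2 (52.2%) and 3 (26.8%). Replicate 1 was the highest 2KO library for Nkx6-1 and Nkx2-1, replicate 2 for Nkx2-9 and Nkx2-5, and replicate 3 for Nkx2-2 and Nkx2-3. The highest 2KO library stood above the lowest by a factor of 1.79 for Nkx6-1, 2.04 for Nkx2-9, 3.69 for Nkx2-5, 4.18 for Nkx2-2, 5.39 for Nkx2-3 and 17.6 for Nkx2-1. The sum over all 9 varied less, from 13.3 to 15.9 CPM. In bulk RNA, more cells with a transcript and more transcript per cell cannot be told apart.

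Around Nkx2-1 and Nkx2-9, the next protein-coding gene was also higher. Pax9, a paired-box factor of teeth, thymus and vertebrae that lies 78.5 kb from Nkx2-9, had 0, 0 and 1 counts in the control libraries and 255, 394 and 374 in the 2KO libraries (10.0, 13.2 and 14.7 CPM). Pax9 rose (edgeR log2 fold change 9.67, SE 0.71, adjusted p = 0.000179), with 11.46 without control replicate 3, which holds its only control count. On the other side Mbip, 186 kb from Nkx2-1, was at 22.6, 22.2 and 21.9 CPM in control and at 18.5, 20.6 and 22.3 CPM in 2KO. Mbip did not pass (edgeR adjusted p = 0.82). Slc25a21, the next gene after Pax9, overlaps the end of Pax9 on the other strand. It had 0 counts in control and 5, 0 and 1 in 2KO. With no strand setting given, any reads of the shared bases cannot be assigned. The order along the chromosome was thus Mbip with overlapping groups, then Nkx2-1, Nkx2-9 and Pax9 with at most 1 count in any control library, then Slc25a21 near 0 in both groups.

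**Figure D4:**
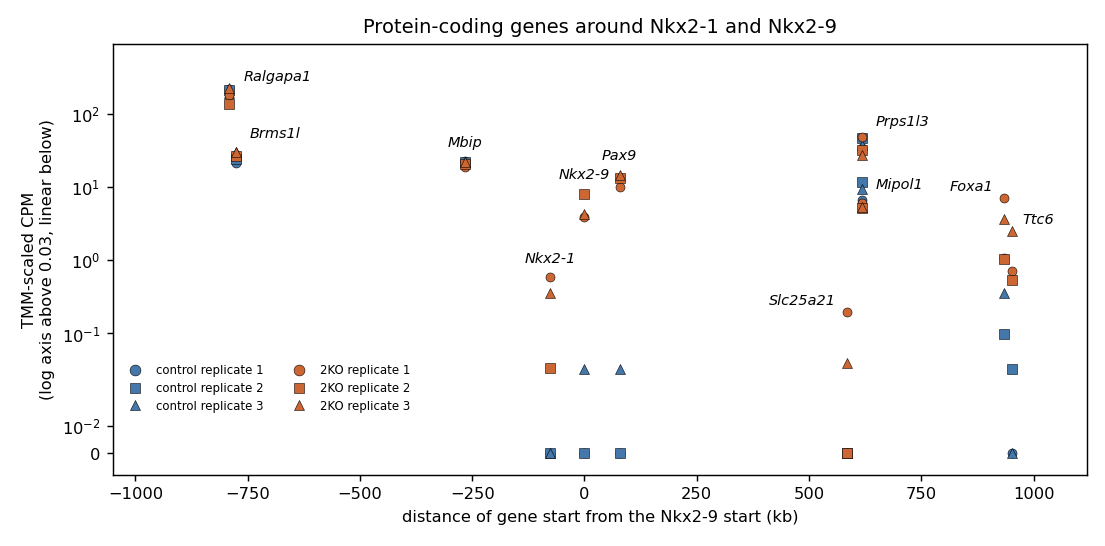
TMM-scaled CPM in each library of the protein-coding genes within 1 Mb of the Nkx2-9 start, by the distance of their start from it (kb); the vertical axis is logarithmic above 0.03 and linear below. Control symbols of Nkx2-1, Nkx2-9 and Pax9 lie at or near 0 and those of 2KO above, up to 14.7 CPM for Pax9, while Mbip lies near 20 CPM in both groups.

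Beyond Slc25a21, 617 kb from the Nkx2-9 start, Prps1l3 was at 39.8 ± 6.68 CPM in control and 36.3 ± 11.0 in 2KO (edgeR adjusted p = 0.839). Mipol1 was at 9.41 ± 2.61 and 5.51 ± 0.534 (edgeR adjusted p = 0.228). Every 2KO library was below every control library, as in 13.1% of tested genes. Ralgapa1 and Brms1l, beyond Mbip, did not pass either (0.628 and 0.784). Foxa1, a pioneer factor of endoderm, and Ttc6 lie at 934 and 951 kb. Foxa1 was at 0.507 ± 0.5 and 3.93 ± 3.02 CPM, with overlapping groups (SD, n = 3, edgeR adjusted p = 0.0992, DESeq2 0.0115). Ttc6 was at 0.0108 ± 0.0186 and 1.25 ± 1.10 CPM (edgeR adjusted p = 0.0198). The call of Ttc6 was lost on leaving out any control library (0.0771, 0.0526 and 0.0889 for replicates 1 to 3) or 2KO replicate 3 (0.0819), and its log2 fold change of 6.34 was 8.13 without control replicate 2 and 5.36 without 2KO replicate 3.

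Over all 9 Nkx genes, the nearest protein-coding gene on each side by start coordinate and noncoding genes within 10 kb came to 18 genes. Fgfr2, which overlaps Nkx1-2 on the same strand but shares no exon base with it, was not taken by this rule. Of the 18 genes, 14 were tested. Pax9 rose, none fell and 13 did not pass, where 6.61% of all tested genes were higher and 2.42% lower. The median log2 fold change was -0.05, beside -0.02 for all tested genes. Pax9, with 1 count over the control group, entered the test through its 2KO level. On one side of Nkx6-1, Cds1, 100 kb away, was at 136 ± 27.8 CPM in control and 107 ± 12.5 in 2KO (edgeR adjusted p = 0.353). On the other, Gpat3, 759 kb away, was at 4.73 ± 2.77 and 10.0 ± 2.34 CPM (edgeR adjusted p = 0.207). Next to Nkx2-3, Got1 was at 22.5 ± 3.16 and 31.1 ± 4.19 CPM and Slc25a28 at 47.1 ± 6.09 and 35.6 ± 6.93 (adjusted p = 0.273 and 0.333). Of the genes next to Nkx2-2, Nkx2-4 had 5 counts in 2KO replicate 2 and 0 elsewhere, and Pax1 had 1 count in control and 8 in 2KO, all in replicate 1.

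Further genes of the family did not reach the test. Nkx2-6 and Nkx6-3 had 0 counts in all 6 libraries, and Nkx1-1 had 1 count, in control replicate 1. Nkx2-4 is given above. Neither Nkx1-1 nor Nkx2-4 passed in the fit without a filter (edgeR adjusted p = 0.691 and 0.466), and genes with 0 counts in all libraries could not be tested there.

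Of 57 factors that act beside NKX proteins in their tissues, 29 were tested: 9 rose, 1 fell and 19 did not pass (median log2 fold change 0.66, beside 6.61% of all tested genes higher, 2.42% lower and a median of -0.02). Of the 9, Gata4, Tbx5, Hand2, Pax9, Tlx1, Barx1 and Wt1 had between 0 and 4 counts over the control group. They entered the test through their 2KO level, as the Nkx genes did. Pax6, with 6, 19 and 28 counts in control replicates 1 to 3, also needed its 2KO level to enter. The count of 9 is thus a description. By tissue, 4 of 8 tested heart factors rose (Gata4, Tbx3, Tbx5 and Hand2), 4 of 11 of the axial skeleton, spleen and gut wall (Pax9, Barx1, Wt1 and Tlx1, with Sox5 lower), 1 of 5 of the ventral neural tube (Pax6) and none of 5 of thyroid, lung and pancreas. Tbx3, a transcriptional repressor that acts in the cardiac conduction system, was at 2.95 ± 0.505 CPM in control and 51.0 ± 15.6 CPM in 2KO (edgeR adjusted p = 0.000182). Pax6, which opposes Nkx2-2 in the neural tube, was at 0.581 ± 0.352 and 10.1 ± 1.70 CPM (adjusted p = 0.00249). Hand2 had 0 counts in control and 0.924 ± 0.0547 CPM in 2KO (adjusted p = 0.0172). Sox5, a cartilage factor that is also expressed in skin, fell from 50.4 ± 21.7 to 17.7 ± 0.417 CPM (adjusted p = 0.0133).

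Single libraries decided some of these calls. Hand2 missed the threshold without control replicate 3 (edgeR adjusted p = 0.0599), 2KO replicate 2 (0.0576) or 2KO replicate 3 (0.0553). Tlx1 missed it without any of the control replicates (0.0799, 0.0531 and 0.093) and without 2KO replicates 1 (0.0508) or 2 (0.0754). Tbx5 and Sox5 missed it once replicate 3 of each group was left out (0.112 and 0.0654). The log2 fold change of Tbx5 was 6.80, and 8.59 without control replicate 2.

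Of 43 products of tissues in which NKX proteins act, 15 were tested: 4 rose, none fell and 11 did not pass. The median log2 fold change was 0.33, beside 6.61% of all tested genes higher, 2.42% lower and a median of -0.02. Those that rose were 2 of 3 tested products, of 7 listed, of cartilage, spleen and gut vessels (Col2a1 and Acan, the collagen and proteoglycan of cartilage). The others were 2 of 5 tested heart products (Ryr2 and Tnnt2, a calcium channel and a troponin). Col2a1 and Acan had 24 and 9 counts over the control group and entered the test through their 2KO level, so this count is a description. Col2a1 went from 0.276 ± 0.255 to 22.7 ± 9.63 CPM (edgeR log2 fold change 6.36, adjusted p = 0.000725, and 7.41 without control replicate 1) and Acan from 0.0979 ± 0.140 to 6.65 ± 1.87 CPM (adjusted p = 0.00506, log2 fold change 8.27 without control replicate 2). Other cartilage genes of the list did not show this: Col11a2 was at 3.98 ± 2.36 and 4.88 ± 1.24 CPM (adjusted p = 0.818), Comp had 21 counts over the control group and 23 over the 2KO group, Matn3 had 6 and 1, and Col9a1 had 0 in all 6 libraries. Ryr2 rose from 1.18 ± 0.221 to 15.7 ± 1.95 CPM (adjusted p = 0.000467). The call of Tnnt2 (6.72 ± 0.449 and 15.5 ± 4.63 CPM, adjusted p = 0.0445) was lost without any library but 2KO replicate 2 (adjusted p between 0.0921 and 0.127). The other tested heart products did not pass: Nppa was at 0.4 ± 0.301 and 0.794 ± 0.374 CPM, Tnni3 at 2.22 ± 0.695 and 1.92 ± 1.32, and Actc1 at 0.893 ± 0.662 and 0.144 ± 0.249 (adjusted p = 0.606, 0.908 and 0.37), and Myl2 had 0 counts in all 6 libraries. No product of thyroid, lung or pancreas passed among 4 tested, and Slc5a5, the thyroid iodide transporter, was at 1.6 ± 0.152 and 1.63 ± 0.909 CPM (adjusted p = 0.988). None of 3 tested products of neurons and oligodendrocytes passed, Mbp, a myelin protein, being at 27.6 ± 7.38 and 36.4 ± 3.83 CPM (adjusted p = 0.415).

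In the hedgehog pathway, which induces Nkx2 and Nkx6 genes in the neural tube, 13 genes were tested. Of these 1 fell, none rose and 12 did not pass. The median log2 fold change was -0.28, beside 6.61% of all tested genes higher, 2.42% lower and a median of -0.02. Shh, the ligand, was at 87.7 ± 26.1 CPM in control and 22.8 ± 12 CPM in 2KO (edgeR log2 fold change -1.94, SE 0.38, adjusted p = 0.012), a call lost without 2KO replicate 2 (0.0512). The pathway's transcriptional targets Ptch1 and Gli1 were at means of 1730 and 192 CPM in control and 1100 and 122 CPM in 2KO, and neither passed (adjusted p = 0.168 and 0.13). Gli2 was at 347 ± 47.9 and 225 ± 28.9 CPM (edgeR adjusted p = 0.0579). Every 2KO library lay below every control library for Shh and Gli2, and above for Sufu (35.1 ± 2.63 and 43.1 ± 3.84 CPM, edgeR adjusted p = 0.438). Over all tested genes, 13.1% lay wholly lower in this way and 15.2% wholly higher. The part of hedgehog signal in the Nkx values was not tested. Of 6 Groucho corepressors 1 rose and 5 did not pass (median 0.46). Tle2 was at 4.53 ± 1.68 and 17.7 ± 9.42 CPM (adjusted p = 0.0379), a call lost without control replicates 1 (0.112) or 3 (0.108) or 2KO replicates 2 (0.116) or 3 (0.123).

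**Figure D5:**
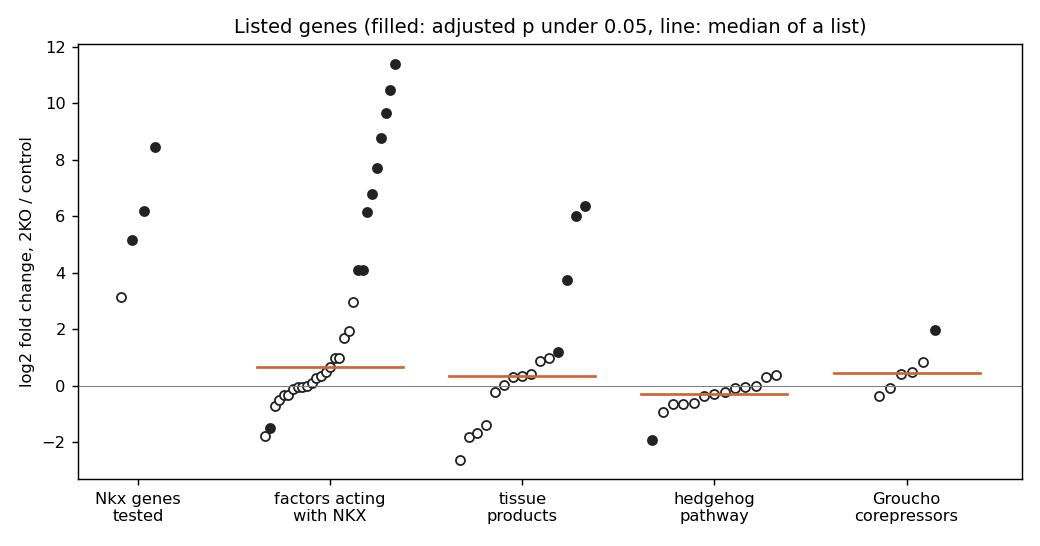
Log2 fold change (2KO over control) of the tested Nkx genes and of the tested genes of 4 lists, ordered within each list; filled circles mark an edgeR adjusted p under 0.05 and orange lines the list medians. Filled circles above 0 number 9 among factors and 4 among tissue products, and the 13 hedgehog genes lie between -1.94 (Shh) and 0.39.

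Markers of skin cell types were compared beside these values. Over all tested genes 6.61% were higher and 2.42% lower, with a median log2 fold change of -0.02. List medians were 0.37 for basal keratinocyte, -0.36 for hair follicle and 0.41 for Merkel cell markers. Basal keratinocyte markers summed to 23400 to 33800 CPM in control and 30100 to 35400 in 2KO, and none of 10 passed, Krt5 being at 11500 ± 4320 and 15700 ± 3670 CPM. Of 10 hair follicle markers 3 fell (Lgr5, Lrig1 and Shh), and their sum was 1990 to 3170 CPM in control and 1560 to 2280 in 2KO, with Cdh3 the highest (463 ± 58.5 and 384 ± 78.5). Merkel cell markers summed to 23.1 to 44.2 CPM in control and 87.8 to 141 in 2KO, where Piezo2 (9.87 ± 1.46 and 42.3 ± 2.51 CPM), Krt18 and Syt7 rose among 8 tested. The defining markers Atoh1 and Krt20 were not higher: Atoh1 had 0, 0 and 5 counts in 2KO against 25, 108 and 7 in control, and Krt20 was at 2.06 ± 0.769 CPM in control and 0.349 ± 0.252 in 2KO (edgeR adjusted p = 0.119, DESeq2 0.0354). The call of Krt18 was lost with replicate 3 of both groups left out (0.0657), and its log2 fold change of 3.83 was 2.96 without 2KO replicate 1 and 4.66 without control replicate 2. Syt7 missed the threshold without 2KO replicates 1 (0.0667) or 2 (0.0794) or control replicates 1 (0.06) or 3 (0.0558), and Lgr5 without 2KO replicate 3 (0.0872) or control replicate 1 (0.064).

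Dermal fibroblast markers summed to 525 to 927 CPM in control and 754 to 913 in 2KO. Their median log2 fold change was 0.11, beside 6.61% of all tested genes higher, 2.42% lower and a median of -0.02. Of 9 tested, Pdgfra (0.896 ± 0.315 and 10.2 ± 5.23 CPM) and Thy1 (13.8 ± 4.55 and 47.7 ± 21.4) rose, while Dcn, the most abundant, was at 382 ± 97.5 and 474 ± 66.9 CPM (edgeR adjusted p = 0.469). Pdgfra missed the threshold with replicate 3 of both groups left out (0.0684, log2 fold change 2.86 against 3.50), and Thy1 without any one of replicates 1 and 2 of 2KO (0.0552 and 0.0752) or of control (0.0685 and 0.0597). Melanocyte sums were 32.6 to 39.6 CPM in control and 33.6, 23.3 and 84.9 in 2KO replicates 1 to 3. Melanocyte, endothelial (3.70 to 17.1 CPM over all 6 libraries), immune (12.6 to 24.8), skeletal muscle (6.39 to 16.0) and Schwann cell (138 to 169) sums overlapped between the groups, and none of their tested genes passed. Their most abundant markers were Pmel (9.40 ± 3.82 and 11.9 ± 4.29 CPM), Pecam1 (2.74 ± 1.87 and 2.68 ± 1.01), Cd74 (8.55 ± 3.45 and 7.40 ± 6.04), Ttn (7.79 ± 2.53 and 9.69 ± 4.76) and Erbb3 (122 ± 9.79 and 103 ± 14.9). Cd207, the Langerhans cell marker, had 0 counts in all 6 libraries. The part of any of these cell types in the Nkx values was not tested.

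The 5 genes whose levels ran most like the mean of the Nkx genes over the 6 libraries were Zfhx4, Parp1, Gabbr1, Ryr2 and Abcb1b, with Pearson r between 0.9976 and 0.9997, given as a description. The profile was the mean log2(CPM + 0.5) of the 7 Nkx genes with counts in at least 3 libraries, and it lay between -0.93 and -0.77 in control and between 0.75 and 0.97 in 2KO. With 6 libraries in 2 groups, such a correlation mainly orders genes by how sharply they separate the groups. Zfhx4, a zinc finger homeobox gene, was at 4.42 ± 0.375 CPM in control and 79.7 ± 14.7 in 2KO, and Gabbr1, a GABA receptor subunit, at 38.2 ± 1.33 and 89.3 ± 6.05. Abcb1b, a drug efflux transporter, was at 3.86 ± 0.525 and 39.5 ± 5.16 CPM. Parp1, a DNA repair enzyme, was at 163 ± 1.25 and 224 ± 5.83 and did not pass the test (edgeR adjusted p = 0.0862).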

How the data were processed

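The authors deposited counts, 1 file per library, as whole numbers of reads for each gene symbol with no normalization. The submitters' processing notes name HTSeq 0.6.1, TopHat2 2.0.13, DESeq2 1.6.3, Cufflinks 2.2.1 and the build mm10. What each tool did, the annotation and the strand setting: not given in the sources used here. About 10 ng of RNA per library was amplified, per the labels' protocols. Reads carry no molecular identifiers, so intervals and floors cover counting error only.

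Counts were filtered by filterByExpr, scaled by TMM and compared by the quasi-likelihood test of edgeR 4.0.16 in R 4.3.3 without covariates. Benjamini-Hochberg adjustment ran over the 14972 genes tested, and the threshold was 0.05. Values after ± are SDs of 3 libraries. Pooled ratios divide summed counts by summed effective library sizes, with exact 95% intervals, and "at least" ratios set a group at 0 to 3 counts over the group. Gene IDs, exon lengths and coordinates are from GENCODE vM21 (GRCm38), which matched 97.3% of symbols. Alternatives used DESeq2 1.42.0, limma 3.58.1, other scalings and filters, Xist as a covariate, a replicate block, and fits without some libraries. The fits were also run on simulated data, in which only genes at a simulated control level of at least 1 CPM were changed. No Nkx gene reached that level in control, so the simulation does not check the Nkx calls.

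The Nkx genes, lists and tests were chosen with earlier results of these data known. Named genes were the targeted and sort genes, the Nkx genes, neighbours past the threshold, up to 4 called genes of highest level per group of a list (or the most abundant where none was called), the most abundant marker of each cell type and the 5 most alike genes. Named after their values were seen were Tlx1, Pdgfra, Thy1, Krt18, Syt7, Atoh1, Krt20, Lgr5, Lrig1, Cd207, Ttc6, Foxa1, Slc25a21, Mbip, Prps1l3, Mipol1, Ralgapa1, Brms1l, Cds1, Gpat3, Got1, Slc25a28, Inpp5a, Col11a2, Comp, Matn3, Col9a1, Nppa, Tnni3, Actc1, Myl2, Pax1, Nkx2-2os, 6430503K07Rik, Ptch1, Gli1, Gli2 and Sufu. Of all listed genes, Trdc matched no row. Some genes that this rule names are not reported here.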

Additional observations from a re-analysis of the deposited data

How the results depend on the processing

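Over 16 alternatives, 2 to 4 Nkx genes rose and none fell: 4 without a low-count filter (Nkx2-5 added) and with DESeq2 (Nkx2-2 added), and 2 where Nkx2-3 was lost or not tested. Of all genes, the number higher in 2KO was 309 without the replicate-3 libraries and 615 to 854 without single libraries. The number lower was 733 with DESeq2, 231 with Xist as a covariate, 72 without the replicate-3 libraries and 184 to 347 without single libraries. Without a filter 2 neighbours rose. Among factors acting with NKX proteins, 0 fell without the replicate-3 libraries, 2 without the replicate-1 libraries and 1 to 2 without single libraries. Hedgehog genes that fell numbered 2 with DESeq2, limma-voom and the replicate block, 0 without the replicate-3 libraries and 0 to 1 without single libraries. Groucho genes that rose numbered 0 with limma-voom, with Xist and without the replicate-3 libraries, and 0 to 1 without single libraries.

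Of 983 values for 62 genes, 888 kept direction and side of the threshold, 62 lost the threshold, 5 gained it and 28 changed sign. None of the sign changes was in an Nkx gene. With Xist the log2 fold change was 0.04 for Ring1, -0.45 for Ly6a and -0.44 for Slc5a5. Without the replicate-3 libraries it was -0.05 for Rnf2, 0.66 for Pecam1, 0.5 for Cd74, -0.04 for Ttn and 0.27 for Tnni3. Without the replicate-1 libraries it was -0.06 for Ly6a, -0.07 for Slc5a5 and 0.12 for Tnni3. With limma-voom it was -0.15 for Slc5a5 and 0.08 for Pecam1. Without single libraries it ranged from -0.34 to 0.53 for Ly6a, -0.25 to 0.45 for Slc5a5, -0.36 to 0.68 for Pecam1, -1.08 to 0.19 for Cd74, -0.14 to 0.53 for Ttn, -0.07 to 0.84 for Col11a2 and -0.9 to 0.17 for Tnni3. The cause of these shifts was not tested.

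Same-numbered libraries of the groups had deviations correlated at 0.32, 0.1 and -0.13, so the numbers were not taken as pairs. With the replicate block 1142 genes rose and 540 fell, the 3 Nkx genes stayed past the threshold, Foxa1 and Ptch1 passed it, Slc5a5 was at -0.15 and Pecam1 at 0.1. The depth, at 0.0323 to 0.0392 CPM per count, limits Nkx1-2, Nkx2-1, Nkx3-2 and Nkx6-2 most.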
